A study of Ambystoma mexicanum with 49 samples.

Results

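The 89 genes described here belong by name to families of enzymes and complex subunits that write, read or erase chromatin marks or remodel chromatin. They were chosen by gene name from 15631 genes in the deposited tables of axolotl embryos. The names taken were the numbered CBX genes, EZH1, EZH2, EED, SUZ12, PHC1 to PHC3, EHMT1, EHMT2, DOT1L and TET1 to TET3, together with MLL and the genes named KDM, SETD, SUV, DNMT, HDAC, MLL or PRMT with a number, and every gene whose name begins with SMARC. The rule used no measured value. The study followed embryonic development of the axolotl (Ambystoma mexicanum, a salamander) by RNA-seq of poly(A) RNA from single whole embryos. There were 49 embryos from 17 stages, with 3 embryos at each of 15 stages and 2 embryos at stage 1 and at stage 11. All were de-jellied, collected at 20°C and given no other treatment by the labels, which name no strain. A second pair of tables holds 5 total RNA libraries, 2 of stage 1 and 3 of stage 2, depleted of ribosomal RNA, which the labels do not tie to embryos.

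Polycomb repressive complex 2 (PRC2) methylates lysine 27 of histone H3 through its catalytic subunit EZH1 or EZH2, held by EED and SUZ12, and PRC1 binds that mark through a chromobox (CBX) subunit. The SUV39H and EHMT enzymes methylate lysine 9 of histone H3, and the HP1 proteins CBX1, CBX3 and CBX5 bind methylated lysine 9 in heterochromatin. DNMT enzymes methylate DNA and TET dioxygenases oxidise that methyl group. Some, but not all, of the MLL and SETD proteins methylate histone lysines, and KDM enzymes remove lysine methylation. HDAC enzymes remove acetyl groups, PRMT enzymes methylate arginines, and SMARC proteins form ATP-driven remodelling complexes. An egg carries a maternal store of such transcripts, and the early embryo divides rapidly with little transcription of its own until the blastula.

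The poly(A) libraries held 12048056 to 44855465 estimated counts, of which the 89 genes took 0.554% to 1.45%. Summed over a list of maternal egg genes, TPM (the authors' level per transcript length and sequencing depth) was 4164 to 4557 at stage 1 and 7.19 to 8.70 at stage 40. For a list of late tissue genes the sum was 442 and 905 in the embryos of stage 1, 50.2 to 238 at stages 2 to 8 and 56332 to 72387 at stage 40. Changes between stages are log2 changes ± SE of counts scaled between libraries by TMM, and "called" means an adjusted p under 0.05 in edgeR's quasi-likelihood test, adjusted over 14437 genes by Benjamini and Hochberg's method. Of the 89 genes 88 were tested, PRMT8 being too low. TPM and scaled changes can part company. The median TPM over 15333 genes was 7.45 at stage 1 and 18.7 at stage 7. It was 16.0 at stage 9, 6.05 at stage 12 and 5.54 at stage 16. Scaling by library size alone moved the median of all log2 changes between stages 9 and 12 by -0.97. Highest and lowest stage means given for single genes are on the TPM scale and share in these shifts. Levels are of whole embryos, where fewer cells of a type and less RNA per cell cannot be told apart.

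Most of these genes were detected throughout development. Of the 89, 67 had a mean of 1 TPM or more at every stage, 75 reached 10 TPM at some stage and 28 reached 100 TPM. The ratio of the highest to the lowest stage mean had a median of 7.01. It was over 10 for 31 genes and under 4 for 25. CBX5, HDAC9 and PRMT8 had a lowest mean of 0 and so no ratio, and they are left out of the median and of both counts. Values over all genes were not recorded for these counts and ratios, so they are not shown to be particular to the members. The highest TPM mean fell at stage 1 for 18 genes, in stages 2 to 8 for 27, in stages 9 to 12 for 31, in stages 14 to 24 for 6 and at stage 40 for 7. Over all genes with a stage at 1 TPM these classes held 13.8%, 28.8%, 17.7%, 12.1% and 27.7%, beside 20.2%, 30.3%, 34.8%, 6.74% and 7.87% of the members. The lowest TPM mean fell at stage 40 for 31 members, or 34.8%, beside 15.2% of all genes. On the TMM scale the peaks moved later, with 12 members highest in stages 2 to 8, 27 in stages 9 to 12 and 26 in stages 14 to 24, beside 19.6%, 15.1% and 21.5% of all tested genes. On that scale 28 of the 88 tested were lowest at stage 40, beside 16.8% of all genes, and 26 of them were also among the 31 of the TPM scale.

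**Figure D1:**
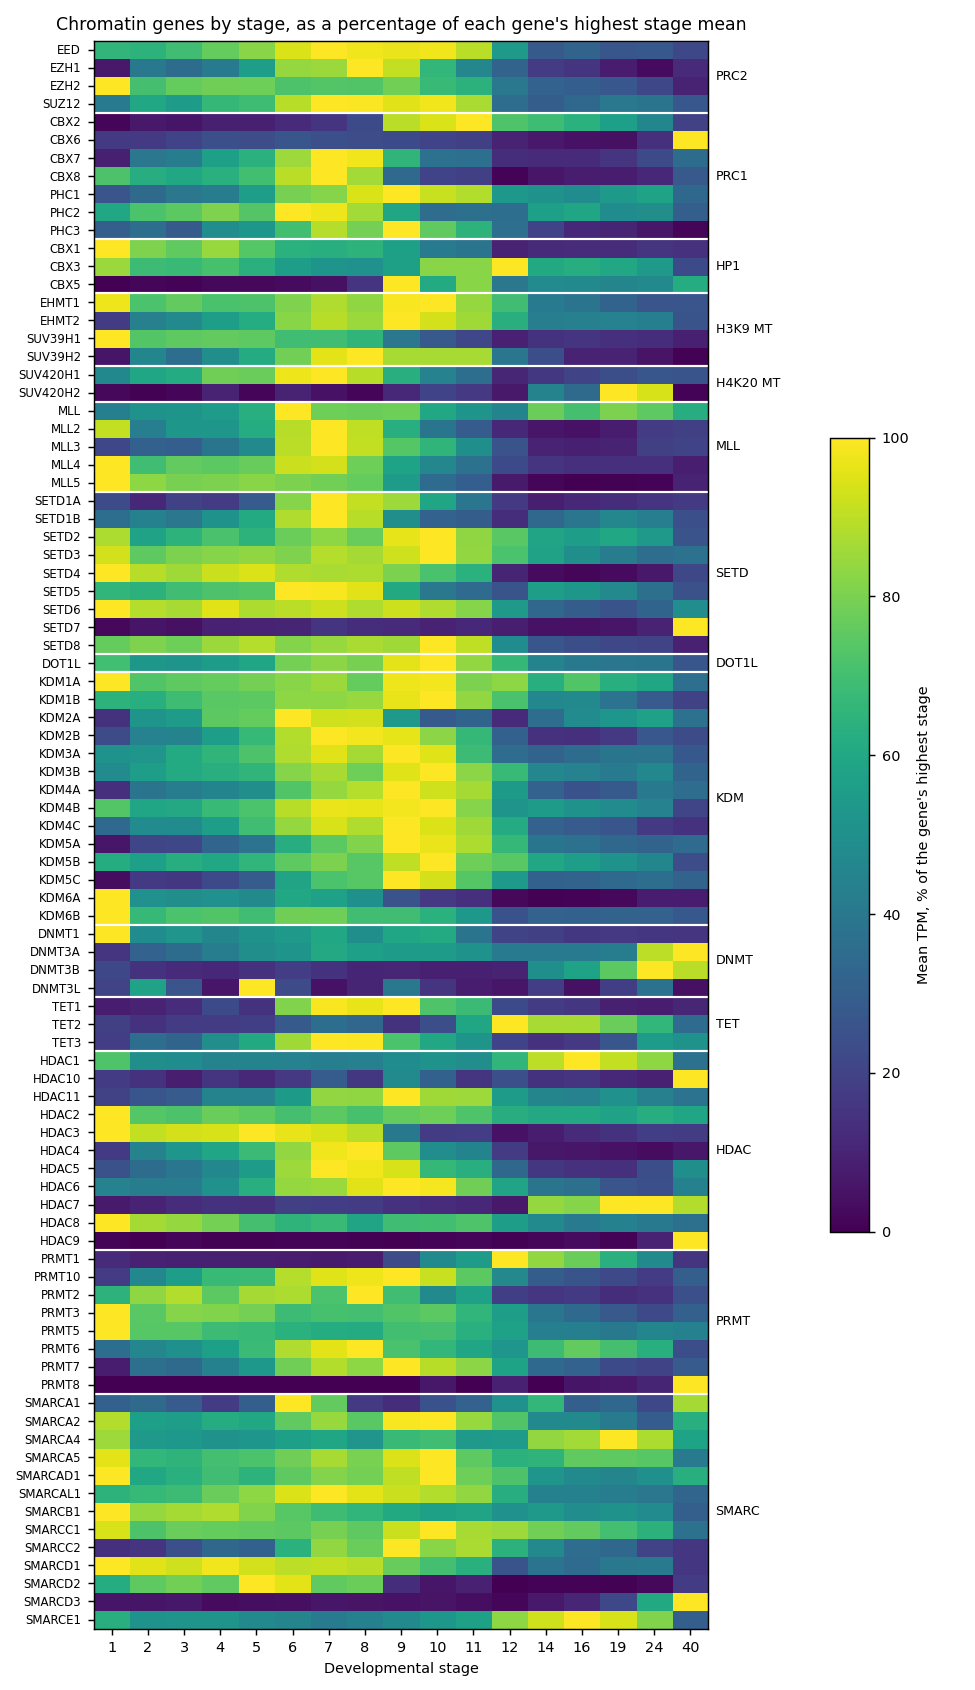
Mean TPM of 88 of the 89 genes at the 17 stages, as a percentage of that gene's highest stage mean, with genes in rows grouped by family and stages in columns. Yellow marks the stage of the highest mean. Only CBX6, SETD7, HDAC9, HDAC10, PRMT8, SMARCD3 and DNMT3A are highest at stage 40.

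Between stages 1 and 2, with the first cleavage, 17 members rose and 19 fell, beside 21.6% of all tested genes called higher and 11.1% called lower. Between stages 2 and 8, the cleavage and early blastula period, 31 rose and 17 fell, beside 24.9% and 18.9%. Between stages 8 and 9, 5 rose and 11 fell, beside 4.02% and 11.8%, a share of members near the background in both directions. Between stages 9 and 12, the gastrula, 28 were called higher and 26 lower, beside 26.2% and 28.3%. Between stages 12 and 19, the neurula, 24 rose and 33 fell, beside 32.8% and 32.5%. Between stages 19 and 40, the period of organ formation, 19 rose and 48 fell, beside 41.1% and 34%. The members called are 19.3%, 35.2%, 5.68%, 31.8%, 27.3% and 21.6% of the 88 for increases and 21.6%, 19.3%, 12.5%, 29.5%, 37.5% and 54.5% for decreases, in the same order. The 6 comparisons share libraries end to end, so a high value in a shared stage lowers the next change.

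Scaling bears on these counts. Under DESeq2 size factors or library size alone the counts of increases and decreases were 15 and 24 or 15 and 25 for stage 2 against 1, 26 and 23 or 38 and 5 for stage 8 against 2, 10 and 10 or 4 and 9 for stage 9 against 8, 30 and 22 or 18 and 38 for stage 19 against 12, and 20 and 44 or 30 and 32 for stage 40 against 19. For stage 12 against 9 library size alone gave 5 and 70, beside 8.37% and 61.5% of all genes. In the other comparisons the all-gene shares with library size alone were, in the same order, 17.8% and 13.5%, 33.3% and 8.16%, 3.73% and 9.7%, 28.5% and 36%, and 54.2% and 19.9%. With DESeq2 size factors they were 18.6% and 16.1%, 20.6% and 24.3%, 5.69% and 9.83%, 39% and 24.3%, and 44.1% and 30.9%. All 26 members that fell in that comparison were also called lower by both other scalings. Of the 28 called higher, only TET2, PRMT1, CBX3, SMARCE1 and HDAC1 were also called higher with library size alone, and the sign turned for the other 23.

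**Figure D2:**
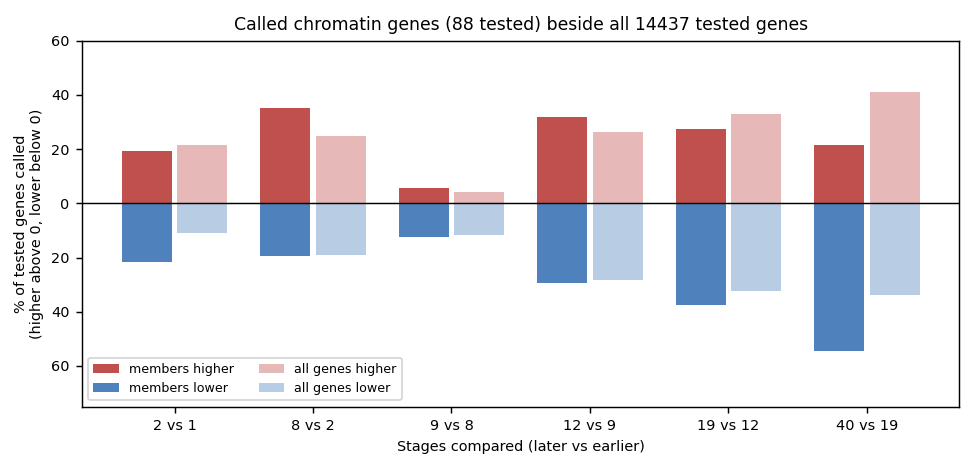
Percentage of the 88 tested chromatin genes (dark bars) and of all 14437 tested genes (light bars) called higher (above 0) or lower (below 0) in each comparison of a later with an earlier stage, TMM scaling. The decreases at stage 40 against 19 take 54.5% of members and 34% of all genes.

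The calls gathered at few steps between neighbouring stages. From stage 2 to 3 and from 3 to 4 edgeR called 0 members and 0% of all genes, where 2 and 4 members had an unadjusted p under 0.05. From stage 10 to 11 edgeR called 0 members, beside 0.0554% and 0% of all genes, and 5 members had an unadjusted p under 0.05. The 2 embryos of stage 11 were far apart, with summed member TPM of 13617 and 24128. Embryos of stage 3 ranged from 6566.5 to 9864 TPM. Such spread limits what could be called at steps next to these stages. The step from stage 11 to 12 had more calls: 23 members rose and 15 fell, beside 16.3% and 21% of all genes. From stage 12 to 14, 23 rose and 22 fell, beside 27.4% and 24.9%. From stage 14 to 16 edgeR called 0 members, beside 0.194% and 0.249%, and 7 members had an unadjusted p under 0.05. All-gene shares at the unadjusted threshold were not recorded, so these member counts have no background and are not read as change. From stage 19 to 24, 10 rose and 13 fell, beside 11% and 13.1%. From stage 24 to 40, 15 rose and 44 fell, beside 37.7% and 30.9%. One library stood apart at stage 2. Replicate 3 was the highest of the 3 stage 2 embryos for 16 of the 17 members that rose from stage 1 and for 29 of the 31 that rose to stage 8, and the lowest for all 17 that fell to stage 8. Over all 89 it was the highest for 45 and the lowest for 31. Without it 16 members rose and 9 fell from stage 1, and 31 rose and 21 fell to stage 8. Over all 14437 tested genes 2033 then rose and 603 fell from stage 1, against 3115 and 1609 with every library. To stage 8 these counts were 3998 and 3104, against 3600 and 2735.

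The catalytic subunits of PRC2 ran in opposite directions in poly(A) RNA at the first step. EZH2, the main H3K27 methyltransferase of dividing cells, was at 476 and 476 TPM at stage 1 and at 337, 383 and 288 TPM at stage 2. The groups do not overlap, and EZH2 fell by 0.49 on the log2 scale (SE 0.11, adjusted p = 0.001). EZH1, the paralogue known in mammals from resting cells, was at 0.369 and 0.789 TPM at stage 1 and at 2.77, 2.99 and 4.78 TPM at stage 2, again without overlap. EZH1 rose by 2.60 ± 0.42 (adjusted p = 6.7e-06) and again by 0.96 ± 0.31 to stage 8, where its mean reached 8.67 TPM. Within single embryos EZH2 exceeded EZH1 by 603 to 1289 times at stage 1, by 31.0 to 55.3 times at stage 8, by 289 to 639 times at stage 24 and by 41.1 to 49.9 times at stage 40. EZH1 fell by 1.79 (SE 0.34) between stages 12 and 19, and its lowest mean was 0.264 TPM at stage 24. These ratios of TPM in 1 library do not depend on scaling between libraries. They and the other ratios between genes given here are of poly(A) RNA, and none was taken in total RNA. In total RNA EZH1 was not called at stage 2.

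The PRC2 core was lowest late. EZH2 was at 356, 372 and 397 TPM at stage 9, 122, 132 and 134 TPM at stage 19 and 49.7, 47.4 and 45.9 TPM at stage 40. The 3 groups do not overlap, and from stage 19 to 40 EZH2 fell by 1.84 (SE 0.11, adjusted p = 2.08e-17). Between stages 9 and 12 its TPM mean went from 375 to 190 while the scaled change was -0.04 ± 0.10, not called. EED, the subunit that binds trimethylated H3K27, had means of 47.2 to 52.6 TPM from stage 6 to 11 and 11.3 TPM at stage 40. It fell by 0.80 from stage 12 to 19 and by 0.71 from stage 19 to 40, and the second fall was not called with library size alone (-0.09). SUZ12, which holds the complex together, was at 39.1, 44.4 and 37.2 TPM at stage 9 and at 14.5, 16.8 and 13.8 TPM at stage 12. That fall of 0.48 (SE 0.16, adjusted p = 0.0107) was also called by both other scalings. SUZ12 was then called higher by 0.39 ± 0.16 to stage 19, but not with library size alone (0.22), and fell by 0.98 (SE 0.16) to stage 40.

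The chromobox subunits of PRC1, which carry the methyl-lysine reader, changed rank during development. CBX2 was at 1.1 and 1.17 TPM at stage 1, and stood at 21.3, 12.5 and 10.9 TPM at stage 8 and 55.5, 67.3 and 54.9 TPM at stage 9. Each group lies above the one before. CBX2 rose by 1.93 ± 0.29 from stage 1 to 2, by 1.43 ± 0.21 to stage 8 and by 2.00 ± 0.20 to stage 9 (adjusted p = 1.81e-09). Its stage means were 66.0 TPM at stage 11, 37.4 TPM at stage 19 and 12.9 TPM at stage 40, with a fall of 1.94 (SE 0.20) in the last interval.

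CBX8 moved the other way at the blastula. It was at 9.15, 12.2 and 11.0 TPM at stage 8, 3.83, 5.25 and 3.72 TPM at stage 9 and 0.118, 0.0646 and 0.14 TPM at stage 12. No groups overlap, and CBX8 fell by 1.32 (SE 0.39) and then by 4.33 (SE 0.53, adjusted p = 7.12e-09). The first of these calls was lost without stage 8 replicate 2 or without stage 9 replicate 1 or 3, with changes of -1.22, -1.27 and -1.24. CBX8 rose again by 3.35 ± 0.56 to stage 19 and by 1.47 ± 0.42 to stage 40, to 3.46, 3.61 and 3.42 TPM. The ratio of CBX2 to CBX8 within an embryo was 0.103 to 0.159 at stage 1, 0.994 to 2.33 at stage 8, 384 to 682 at stage 12 and 3.43 to 3.88 at stage 40.

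CBX7 and CBX6 peaked at different times. CBX7 rose from 0.539 and 1.17 TPM at stage 1 to 2.52, 3.16 and 5.93 TPM at stage 2 and 9.56, 9.55 and 9.49 TPM at stage 8, and fell by 1.37 (SE 0.24) between stages 9 and 12. CBX6 had means of 5.68 to 8.98 TPM up to stage 11. It was at 1.29, 1.73 and 1.55 TPM at stage 19, 2.72, 3.99 and 7.12 TPM at stage 24 and 39.3, 32.9 and 28.8 TPM at stage 40. The last group is far above the others, and the rise from stage 19 to 40 was 4.05 ± 0.23 (adjusted p = 1.34e-17). At stage 40 CBX6 had a higher mean TPM than CBX2, CBX7 and CBX8, where CBX2 had the highest of these from stage 9 to 24.

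Of the PHC subunits, which polymerise PRC1, PHC1 led at every stage. PHC1 rose by 1.11 ± 0.16 between stages 2 and 8, from 13.7, 15.6 and 29.0 TPM to 54.7, 56.0 and 48.1 TPM, and fell by 1.09 (SE 0.16) between stages 19 and 40. PHC2 had stage means of 6.05 to 20.1 TPM. PHC3 went from a mean of 5.52 TPM at stage 9 to 0.0947 TPM at stage 40, with falls of 1.64 (SE 0.38) to stage 19 and 2.96 (SE 0.44) to stage 40. PHC1 exceeded PHC2 by 1.18 to 1.27 times at stage 1 and by 4.07 to 5.80 times at stage 9.

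**Figure D3:**
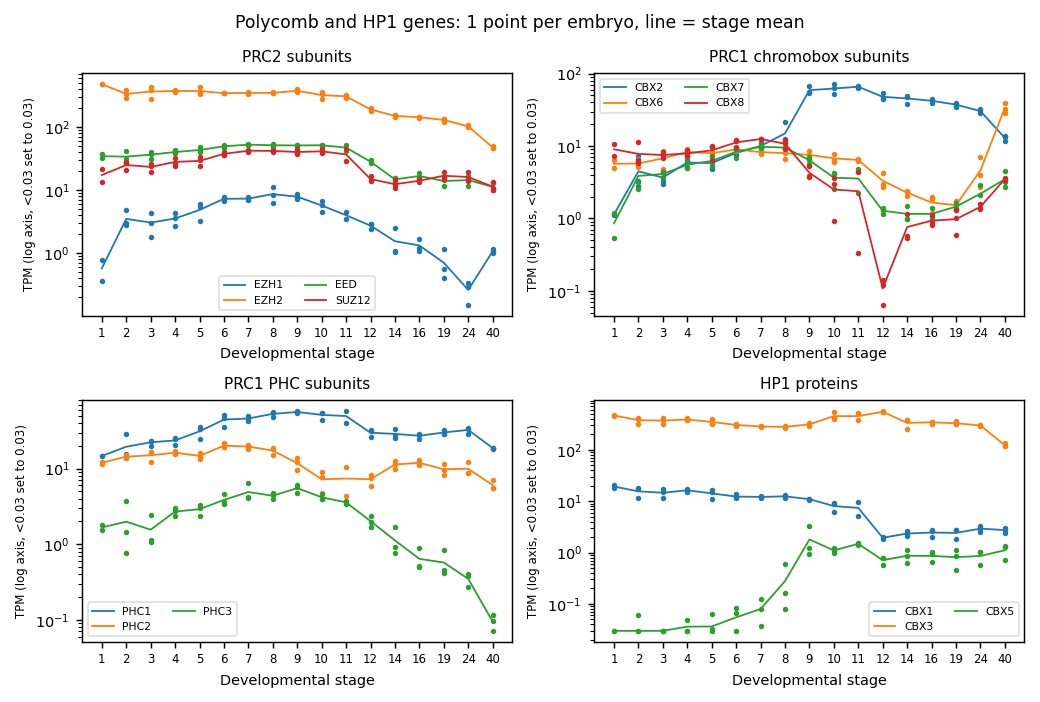
TPM on a log axis by stage for PRC2 subunits, CBX2, CBX6, CBX7, CBX8 and PHC subunits of PRC1, and HP1 proteins, 1 point per embryo and a line through the stage means, with values under 0.03 drawn at 0.03. CBX2 climbs to 55.5 to 67.3 TPM at stage 9, CBX8 drops to 0.0646 to 0.14 TPM at stage 12 and CBX6 reaches 28.8 to 39.3 TPM at stage 40.

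Among the HP1 proteins CBX3 had the highest mean at every stage. CBX3 was at 296, 306 and 339 TPM at stage 9, 537, 580 and 533 TPM at stage 12 and 133, 117 and 118 TPM at stage 40. The groups are apart, with a rise of 1.75 ± 0.17 between stages 9 and 12 (adjusted p = 5.29e-11) and a fall of 1.83 (SE 0.17) between stages 19 and 40. It also fell by 0.81 (SE 0.17) from stage 2 to 8. CBX1 was at 11.1, 11.0 and 10.7 TPM at stage 9 and at 1.95, 2.02 and 1.86 TPM at stage 12, without overlap, a fall of 1.55 (SE 0.17, adjusted p = 6.48e-10). CBX5 was listed at 0 in both stage 1 embryos, was at 0.590, 0.165 and 0.0798 TPM at stage 8 and rose by 2.68 ± 0.54 to 3.24, 1.22 and 0.931 TPM at stage 9.

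The H3K9 methyltransferases EHMT1 and EHMT2 moved in opposite directions in poly(A) RNA at the first step. EHMT2 (G9a) was at 20.3 and 39.1 TPM at stage 1 and at 64.8, 62.4 and 91.0 TPM at stage 2, without overlap, and rose by 1.29 ± 0.17 (adjusted p = 2.35e-07) and by a further 0.61 ± 0.14 to stage 8. Its partner EHMT1 (GLP) was at 128 and 143 TPM at stage 1 and at 92.2, 119 and 88 TPM at stage 2, a fall of 0.43 (SE 0.15). EHMT1 exceeded EHMT2 by 3.67 to 6.30 times at stage 1 and lay at 0.780 to 0.853 times EHMT2 at stage 8. In total RNA, normalised separately, the stage 1 order was the other way, with means of 55.7 TPM for EHMT1 and 77.9 TPM for EHMT2, and neither was called at stage 2. EHMT1 fell by 0.90 (SE 0.13) between stages 12 and 19, and EHMT2 fell by 1.18 (SE 0.14) between stages 19 and 40.

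SUV39H1, a writer of trimethylated H3K9, was at 132 and 144 TPM at stage 1, 87.5, 87.9 and 95.6 TPM at stage 8, 43.8, 57.7 and 62.1 TPM at stage 9 and 13, 12.7 and 12.9 TPM at stage 12. Each group lies below the one before. It fell by 0.71 (SE 0.20) to stage 9, not called without stage 9 replicate 1 (-0.59), and by 1.14 (SE 0.20, adjusted p = 6.24e-06) to stage 12. SUV39H2 stayed low, with its highest mean of 4.45 TPM at stage 8. It rose by 2.91 ± 0.70 from stage 1 to 2 and fell by 3.71 (SE 0.75) from stage 19 to 40, where it was at 0, 0.0293 and 0.0723 TPM.

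The H4K20 methyltransferases SUV420H1 and SUV420H2, writers of di- and trimethylation, both rose between stages 12 and 19 and stood far apart at stage 40. SUV420H1 was at 41.2, 56.7 and 48.7 TPM at stage 9, 7.82, 9.64 and 7.20 TPM at stage 12 and 18.3, 19.6 and 17.4 TPM at stage 19. The groups do not overlap, with a fall of 1.63 (SE 0.14, adjusted p = 3.44e-12) and a rise of 1.38 ± 0.14 (adjusted p = 1.71e-10). SUV420H2 was at 1.57, 0.614 and 0.727 TPM at stage 12, 7.25, 16.5 and 17.8 TPM at stage 19 and 0.196, 0.151 and 0.0985 TPM at stage 40. It rose by 3.99 ± 1.00 and then fell by 6.87 (SE 1.18, adjusted p = 2.97e-06). Without stage 12 replicate 1 the rise was 4.64. The ratio of SUV420H1 to SUV420H2 within an embryo was 0.977 to 2.52 at stage 19 and 115 to 181 at stage 40.

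DNMT1, which copies DNA methylation onto the new strand at replication, was the most abundant DNA methyltransferase at every stage. It was at 441 and 399 TPM at stage 1 and at 181, 278 and 155 TPM at stage 2, without overlap. DNMT1 fell by 1.03 (SE 0.24, adjusted p = 0.00116), and by 0.82 without stage 2 replicate 3. Its means of 193 to 258 TPM from stage 2 to 10 were followed by 86.8 TPM at stage 12, with a fall of 0.58 (SE 0.22) between stages 9 and 12, and by 65.5 TPM at stage 40.

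The de novo methyltransferases had their highest means late, DNMT3B at stage 24 and DNMT3A at stage 40. DNMT3B was at 1.67, 2.22 and 2.46 TPM at stage 12 and at 16.0, 20.9 and 13.4 TPM at stage 19. Every stage 19 embryo was above every stage 12 embryo, and the rise was 3.21 ± 0.26 (adjusted p = 3.32e-13). Its mean was 11.2 TPM by stage 14. DNMT3A rose from 4.09 and 4.76 TPM at stage 1 to 7.49, 6.91 and 13 TPM at stage 2, by 1.03 ± 0.18, and from a mean of 12.4 TPM at stage 19 to 35.2, 28.1 and 24.3 TPM at stage 40, by 0.83 ± 0.15. DNMT3A exceeded DNMT3B by 4.85 to 11.4 times at stage 9 and lay at 0.673 to 0.786 times DNMT3B at stage 19. The row named DNMT3L, a cofactor without catalytic activity in mammals, had a short gene model and means of 0.157 to 3.64 TPM, and in edgeR 0 of its 6 comparisons were called, the lowest unadjusted p being 0.0654.

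Among the TET dioxygenases TET1 and TET3 were high in the blastula and TET2 from stage 12 to 24. TET2 embryos were spread before that, at 6.90 ± 5.69 TPM (SD, n = 3) at stage 10 and 16.9 ± 18.2 TPM (SD, n = 2) at stage 11. TET3 was high again late, with means of 31.3 and 28.9 TPM at stages 24 and 40. TET1 was at 4.25 and 1.02 TPM at stage 1, 0, 0 and 9.70 TPM at stage 2, 40.9, 25.8 and 29.2 TPM at stage 8 and 3.22, 2.90 and 2.51 TPM at stage 19. Its rise of 3.19 ± 0.72 from stage 2 to 8 rests on stage 2 embryos that range from a listed 0 to 9.70 TPM, with replicate 3 alone above 0. It was 2.56 without replicate 1 or 2. Without replicate 3 both stage 2 embryos left are listed at 0, and the fitted value of 9.27 then depends on the prior count. With only the 2 stages fitted it was 3.12 and not called (adjusted p = 0.0948). The TET1 gene model was short, at 0.130 of the median length of all genes, and its estimated counts reached at most 193 in a library.

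TET3 was at 15.3, 12.8 and 33.2 TPM at stage 2, 54.7, 56.5 and 57.2 TPM at stage 8 and 10.6, 12.8 and 10.9 TPM at stage 12. Its groups at stages 2 and 8 do not overlap, and it rose by 1.13 ± 0.19, or 1.57 without stage 2 replicate 3. TET3 fell by 0.88 (SE 0.19) between stages 9 and 12 and rose by 0.54 ± 0.19 between stages 19 and 40. The change of 0.61 ± 0.19 between stages 12 and 19 was called, but not with library size alone (0.44). TET2 was at 4.07, 5.10 and 3.54 TPM at stage 9 and at 27.2, 29.1 and 29.6 TPM at stage 12. The groups are far apart, and TET2 rose by 3.71 ± 0.46 (adjusted p = 7.06e-09). TET3 exceeded TET2 by 8.48 to 10.6 times at stage 9 and lay at 0.368 to 0.438 times TET2 at stage 12. TET3 again had the higher mean at stage 24, at 31.3 against 19.0 TPM, and exceeded TET2 by 2.58 to 3.09 times at stage 40.

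**Figure D4:**
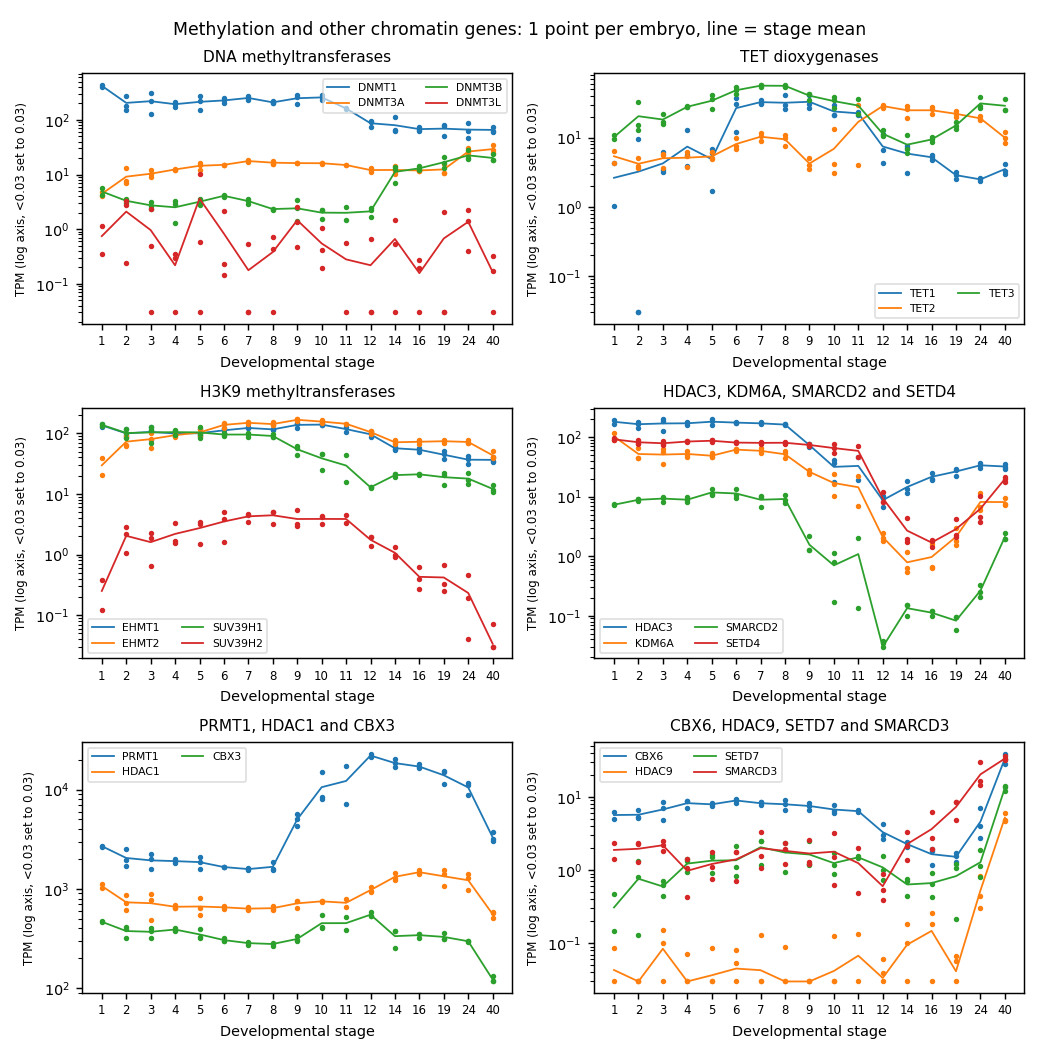
TPM on a log axis by stage for DNA methyltransferases, TET dioxygenases, H3K9 methyltransferases and 11 other members, 1 point per embryo and a line through the stage means, with values under 0.03 drawn at 0.03. TET2 overtakes TET3 between stages 9 and 12, and PRMT1 climbs from 1556 to 1860 TPM at stage 8 to 21259 to 22990 TPM at stage 12.

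The MLL genes (lysine 4 methyltransferases of histone H3, with MLL5 a divergent relative) were led by MLL4 up to stage 24. MLL4 was at 61.1 ± 4.5 TPM (SD, n = 2) at stage 1 and 5.16 ± 1.08 TPM (SD, n = 3) at stage 40, where MLL2 had a mean of 7.05 TPM. The names MLL2 and MLL4 have each been used for both KMT2B and KMT2D, so which of these the rows hold is not settled. MLL5 had the widest range of all MLL genes, from 16.6 TPM at stage 1 to 0.0546 TPM at stage 16. MLL5 was at 10.0, 7.07 and 10.5 TPM at stage 9 and at 1.13, 1.39 and 1.15 TPM at stage 12, a fall of 1.98 (SE 0.32, adjusted p = 1.94e-06). It fell by a further 4.03 to stage 19 and rose by 4.20 to stage 40. MLL2 was at 32.5 and 34.6 TPM at stage 1 and 15.0, 19.5 and 13.2 TPM at stage 2, without overlap, a fall of 1.07 (SE 0.28), and fell by 1.53 (SE 0.27) between stages 9 and 12. MLL3 rose by 1.2 ± 0.23 between stages 2 and 8, to 13.3, 17.5 and 19.5 TPM. Of the 5 MLL genes 4 fell between stages 9 and 12 under TMM scaling, beside 28.3% of all genes. Under DESeq2 size factors 4 also fell, beside 28.9%, and 5 when only library size was used, beside 61.5%.

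Of the SETD genes SETD3 was the most abundant on average, with a mean of 269 ± 11 TPM (SD, n = 3) at stage 10 and 95.7 ± 14.5 TPM (SD, n = 3) at stage 24. SETD4 had the widest range. It was at 76.0, 70.4 and 74.3 TPM at stage 9, 8.16, 12.2 and 7.98 TPM at stage 12, 2.10, 4.16 and 2.29 TPM at stage 19 and 21.4, 17.9 and 20.0 TPM at stage 40. No groups overlap, and SETD4 fell by 2.03 (SE 0.21) and 1.49 (SE 0.23) and then rose by 2.38 ± 0.23 (adjusted p = 1.39e-11).

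The SET1 enzymes SETD1A and SETD1B, which methylate lysine 4 of histone H3, both had their highest TPM mean at stage 7. The median TPM of all genes was also highest at that stage. SETD1A was at 1.62, 1.43 and 2.99 TPM at stage 2 and at 14.5, 14.8 and 17.7 TPM at stage 8, a rise of 2.63 ± 0.35 between groups that do not overlap, and fell by 1.39 (SE 0.34) between stages 9 and 12. SETD1B fell by 0.84 (SE 0.17) from stage 8 to 9 and rose by 2.04 ± 0.18 from stage 12 to 19, where it was at 5.47, 6.30 and 5.87 TPM. SETD2, which writes the trimethyl mark on H3K36, fell by 0.60 (SE 0.17) from stage 1 to 2. SETD8, which places the first methyl group on H4K20, went from 118, 121 and 135 TPM at stage 12 to 47.9, 56.6 and 61.3 TPM at stage 19, a fall of 0.95 (SE 0.11). SETD6 fell by 0.83 (SE 0.14) in the same interval.

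SETD7, an enzyme of both histone and other proteins, was at 0.213, 1.07 and 1.2 TPM at stage 19 and at 13.7, 14.2 and 12.0 TPM at stage 40. All stage 40 embryos were above all earlier ones in that comparison, and the rise was 3.54 ± 0.54. DOT1L, the H3K79 methyltransferase, had its highest mean of 87.2 TPM at stage 10 and its lowest of 23.3 TPM at stage 40. Between stages 9 and 12 its TPM mean went from 83.6 to 58.2, while the scaled change was 0.42 and called higher. The sign of that change turned with library size alone. DOT1L fell by 0.55 from stage 12 to 19 and by 0.96 from stage 19 to 40.

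Several demethylases were low in poly(A) RNA at stage 1 and rose in it during cleavage. In total RNA, a table normalised separately, stage 1 means were 38.1 TPM for KDM5C, 37.0 TPM for KDM5A, 29.2 TPM for KDM4A and 10.3 TPM for KDM2A, and of these only KDM5C was called higher at stage 2. In poly(A) RNA 6 of the 14 KDM genes rose and 4 fell between stages 1 and 2, beside 21.6% and 11.1% of all genes. Between stages 2 and 8, 7 rose and 1 fell, beside 24.9% and 18.9%. KDM5C, which removes methyl groups from lysine 4 of histone H3, was at 3.30 and 3.58 TPM at stage 1, 13, 11.2 and 26.6 TPM at stage 2 and 76.7, 70.2 and 74.3 TPM at stage 8. The groups do not overlap, and KDM5C rose by 2.27 ± 0.24 (adjusted p = 9.73e-09) and then by 1.79 ± 0.20. Without stage 2 replicate 3 these were 1.88 and 2.18. Its paralogue KDM5A was at 3.52 and 3.01, then 6.96, 4.88 and 21.9, then 44.6, 43.2 and 42.6 TPM at the same stages. KDM5A rose by 1.72 ± 0.31 and 1.65 ± 0.26, which became 0.92 and 2.45 without stage 2 replicate 3. KDM5B was the most abundant KDM gene on average and varied less, from 319 TPM at stage 10 to 74.9 TPM at stage 40. KDM5B exceeded KDM5C by 52.7 to 61.5 times at stage 1 and by 3.13 to 3.31 times at stage 8.

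KDM2A and KDM4A rose at the same step. KDM4A, an eraser of H3K9 and H3K36 methylation, was at 7.95 and 13.9 TPM at stage 1 and at 26.2, 23.3 and 45.6 TPM at stage 2, a rise of 1.52 ± 0.20. KDM2A, an H3K36 demethylase, was at 2.64 and 5.52 TPM at stage 1, 13.5, 10.1 and 19.8 TPM at stage 2, 3.70, 3.35 and 2.95 TPM at stage 12 and 13, 15.5 and 15.4 TPM at stage 19. It rose by 1.82 ± 0.30 at the first step, or 2.43 without stage 1 replicate 2. KDM2A rose again by 2.35 ± 0.26 between stages 12 and 19. Its fall of 0.77 (SE 0.24) from stage 8 to 9 was not called without stage 8 replicate 2 or without stage 9 replicate 1 or 3, with changes of -0.65, -0.80 and -0.69, nor with library size alone (-0.78, adjusted p = 0.0598).

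The H3K27 demethylases KDM6A and KDM6B were highest at stage 1. KDM6A had the widest range of the KDM genes. It was at 117 and 88.2 TPM at stage 1, 43.7, 57.4 and 53.0 TPM at stage 8, 25.7, 28.0 and 24.4 TPM at stage 9, 1.79, 2.45 and 2.03 TPM at stage 12 and 9.53, 7.21 and 7.55 TPM at stage 40. Each group up to stage 12 lies below the one before. KDM6A fell by 0.98 (SE 0.29) to stage 2, 0.96 (SE 0.27) from stage 8 to 9 and 2.7 (SE 0.30, adjusted p = 5.43e-10) to stage 12, and rose by 1.56 ± 0.29 between stages 19 and 40. Its first fall was not called without stage 1 replicate 1 (-0.74) or stage 2 replicate 3 (-0.84). KDM6B fell by 0.56 (SE 0.15) from stage 1 to 2, not called without stage 2 replicate 3 (-0.40) or with only the 2 stages fitted (-0.64), and its lowest mean was 28.4 TPM at stage 12. KDM6A lay at 0.750 to 1.09 times KDM6B at stage 1 and at 0.0647 to 0.0866 times at stage 12.

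Later the counts leaned the other way. Of the 14, 7 fell and 3 rose between stages 12 and 19, beside 32.5% and 32.8% of all genes. With DESeq2 size factors, though, 4 went each way, beside 24.3% lower and 39% higher. Between stages 19 and 40, 10 fell and 1, KDM6A, rose, beside 34% and 41.1% of all genes. With library size alone 5 fell and 3 rose, beside 19.9% and 54.2%. KDM4C fell by 0.97 (SE 0.16) between stages 12 and 19, from 5.67, 7.86 and 7.10 TPM to 3.01, 3.07 and 2.91 TPM. KDM1A (LSD1) was called higher at stage 12 than at 9, by 0.71 ± 0.15, but its TPM went from 50.4, 50.8 and 65.9 to 45.1, 48.8 and 48.5 and the change was -0.26 with library size alone.

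Of the deacetylases, HDAC1 and HDAC2, the class I enzymes of the NuRD, SIN3 and CoREST complexes, were the most abundant. HDAC1 was at 645, 754 and 749 TPM at stage 9 and at 951, 928 and 1039 TPM at stage 12, without overlap, and rose by 1.39 ± 0.15 (adjusted p = 4.66e-10). Its highest mean was 1474 ± 81 TPM (SD, n = 3) at stage 16 and its lowest 556 ± 41 TPM (SD, n = 3) at stage 40. HDAC2 had means of 425 to 739 TPM. HDAC1 exceeded HDAC2 by 1.22 to 1.29 times at stage 9, 2.88 to 3.39 times at stage 19 and 1.23 to 1.35 times at stage 40.

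HDAC3, the class I enzyme of the NCOR complexes, fell steeply from the blastula to the gastrula and rose again in part. It was at 157, 163 and 166 TPM at stage 8, 68.0, 75.1 and 76.1 TPM at stage 9, 10.0, 9.32 and 6.74 TPM at stage 12 and 22.4, 27.4 and 29.2 TPM at stage 19. No groups overlap. HDAC3 fell by 1.13 (SE 0.19) and 2.11 (SE 0.20, adjusted p = 3.18e-11) and rose by 1.80 ± 0.21. HDAC8 fell by 0.94 (SE 0.14) from stage 2 to 8, from 21.7, 21.8 and 19.2 TPM to 11.0, 14.4 and 16.8 TPM.

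Of the class II deacetylases HDAC4, HDAC5 and HDAC6 had their highest means at stages 8, 7 and 9, HDAC7 at stage 19, and HDAC9 and HDAC10 at stage 40. HDAC4 rose from 1.87 and 2.67 TPM at stage 1 to 5.02, 5.03 and 7.68 TPM at stage 2, by 1.37 ± 0.24, and its mean was 13.2 TPM at stage 8 and 0.644 TPM at stage 19. HDAC6, a tubulin deacetylase, fell by 0.94 (SE 0.15) from stage 12 to 19. HDAC7 was at 0.876, 0.677 and 1.14 TPM at stage 12 and at 14.4, 11.5 and 13.9 TPM at stage 19, and its rise of 4.11 ± 0.35 (adjusted p = 1.32e-12) was the largest of any named member in that comparison. HDAC9, known from muscle and heart of mammals, was at 0, 0.0579 and 0.0661 TPM at stage 19 and at 4.71, 4.91 and 6.06 TPM at stage 40. HDAC9 rose by 6.45 ± 1.16 (adjusted p = 7.75e-06). HDAC10 rose by 2.73 ± 0.43 to 6.91, 7.31 and 7.46 TPM and HDAC5 by 1.43 ± 0.25 to 8.20, 6.64 and 6.38 TPM in the same comparison.

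PRMT1, the main enzyme of asymmetric arginine dimethylation, outweighed all other members together from stage 10 to stage 24. It was at 1860, 1556 and 1590 TPM at stage 8, 4302, 5072 and 5646 TPM at stage 9, 21259, 21837 and 22990 TPM at stage 12 and 3708, 3038 and 3171 TPM at stage 40. The groups do not overlap, and PRMT1 rose by 1.61 ± 0.25 (adjusted p = 6.18e-06) and 3.08 ± 0.26 (adjusted p = 1.4e-12) and fell by 2.48 (SE 0.26) between stages 19 and 40. At stage 12 it was 79.4% of the summed TPM of the members, and by mean TPM it ranked 3 among 15631 genes. Embryos of stages 10 and 11 were spread, at 15093, 8117 and 8503 TPM and at 7092 and 17341 TPM. The PRMT1 gene model was short, at 0.301 of the median length, which raises TPM for a given count, and its estimated counts ran from 6711 to 244970 per library. Without PRMT1 the members summed to 8034 TPM at stage 1, 7471 TPM at stage 9, 5721 TPM at stage 12 and 3316 TPM at stage 40.

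The other PRMT genes kept to lower levels. PRMT7, which monomethylates arginine, was at 3.67 and 6.25 TPM at stage 1 and at 21.1, 12.7 and 37.6 TPM at stage 2, without overlap, and rose by 2.25 ± 0.25 (adjusted p = 1.11e-08). Without stage 2 replicate 3 the rise was 1.85. PRMT7 fell by 1.17 (SE 0.20) between stages 12 and 19. PRMT10 rose by 1.39 ± 0.17 from 3.17 and 3.41 TPM to 8.68, 5.92 and 11.5 TPM at the first step and fell by 0.86 (SE 0.15) between stages 12 and 19. PRMT5, the main enzyme of symmetric dimethylation, was called higher at stage 12 than at 9 by 0.65 ± 0.12, while its TPM went from 343, 377 and 400 to 291, 318 and 309 and library size alone gave -0.32 (adjusted p = 0.0299). PRMT6 fell by 1.96 (SE 0.17) between stages 19 and 40, from 20.0, 31.9 and 28.4 TPM to 9.99, 8.65 and 8.58 TPM. PRMT8, known from mammalian brain, reached 2.21 TPM at stage 40 and had a mean of 0 at every stage up to 9.

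The SMARC remodelling subunits were led by SMARCA5, the ISWI ATPase, at 502 ± 30 TPM (SD, n = 3) at stage 10 and 209 ± 24 TPM (SD, n = 3) at stage 40. Its relative SMARCA1 had means of 0.163 to 1.26 TPM on a short gene model. From stage 1 to 2, 4 of 13 SMARC genes fell and 0 rose, beside 11.1% and 21.6% of all genes. With DESeq2 size factors 7 fell, beside 16.1% of all genes, and with library size alone also 7, beside 13.5%. SMARCAD1 was at 117 and 109 TPM and then at 61.6, 79.6 and 60.4 TPM, a fall of 0.74 (SE 0.15) without overlap. The SWI/SNF ATPase SMARCA4 (BRG1) fell by 0.65 (SE 0.19), not called without stage 1 replicate 1 (-0.60) or stage 2 replicate 3 (-0.45). SMARCA2 (BRM) fell by 0.66 (SE 0.16), with -0.74 and no call when only the 2 stages were fitted (adjusted p = 0.0834). SMARCA4 exceeded SMARCA2 by 1.60 to 1.79 times at stage 9 and by 5.64 to 6.30 times at stage 19.

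SMARCA2 rose by 0.43 ± 0.15 from stage 8 to 9. The call was lost when any of the 3 stage 8 embryos or stage 9 replicate 2 or 3 was left out, with changes of 0.37 to 0.46, and with library size alone, at 0.42. With the replicate number as a block it was 0.43 with an adjusted p of 0.0534.

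The SMARCD subunits, alternative forms of the same position in SWI/SNF, followed different courses, with the highest mean in SMARCD1 at every stage. SMARCD2 was at 7.91, 8.73 and 10.7 TPM at stage 8, 1.27, 1.26 and 2.15 TPM at stage 9 and 0.0245 ± 0.0212 TPM (SD, n = 3) at stage 12. It fell by 2.50 (SE 0.40, adjusted p = 1.05e-05) to stage 9 and by 4.86 to stage 12, the widest range of any SMARC gene. SMARCD3, which in the mouse takes part in heart and muscle development, was at 0.890, 0.385 and 0.535 TPM at stage 12, 4.79, 8.65 and 8.55 TPM at stage 19 and 36, 32.9 and 32.1 TPM at stage 40. The groups do not overlap, and SMARCD3 rose by 3.77 ± 0.55 and 1.79 ± 0.48. SMARCD1 fell by 1.74 (SE 0.16) between stages 19 and 40. SMARCD1 exceeded SMARCD3 by 85.7 to 160 times at stage 9, 12.7 to 18.2 times at stage 19 and 1.19 to 1.24 times at stage 40. The late tissue genes summed to 234 to 293 TPM at stage 19 and rose with SMARCD3, CBX6 and HDAC9 at stage 40; their part in these values was not tested.

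The core subunits SMARCE1 and SMARCB1 differed in the gastrula. SMARCE1 was at 104, 99.98 and 103 TPM at stage 9, 187, 169 and 178 TPM at stage 12 and 70.9, 62.4 and 62.0 TPM at stage 40. It rose by 1.75 ± 0.13 (adjusted p = 3.14e-14) between stages 9 and 12 and fell by 2.03 (SE 0.13, adjusted p = 1.08e-16) between stages 19 and 40. SMARCB1 was called higher at stage 12 by 0.68 ± 0.11 under TMM scaling, with TPM of 151, 146 and 152 at stage 9 and 124, 123 and 129 at stage 12 and a change of -0.28 with library size alone. From stage 2 to 8 SMARCB1 fell by 0.73 (SE 0.11) and SMARCE1 by 0.58 (SE 0.12). For the whole family 8 rose and 2 fell between stages 9 and 12 under TMM scaling, beside 26.2% and 28.3% of all genes. With library size alone 1 rose and 8 fell, beside 8.37% and 61.5%. Between stages 19 and 40, 8 of the 13 fell and 2 rose, beside 34% and 41.1%. Under library size alone 7 fell and 4 rose, beside 19.9% and 54.2%.

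The scaffold subunits SMARCC1 and SMARCC2, which pair in the SWI/SNF core of mammals, were at very unequal levels. SMARCC2 was at 0.615, 0.818 and 1.5 TPM at stage 2 and at 4.40, 4.36 and 6.11 TPM at stage 8, without overlap, and rose by 2.03 ± 0.40. SMARCC1 was at 330 and 309 TPM at stage 1 and at 287, 326 and 326 TPM at stage 9, overlapping ranges. Within an embryo SMARCC1 exceeded SMARCC2 by 333 to 376 times at stage 1 and by 44.5 to 54.4 times at stage 9. SMARCC1 fell by 1.30 (SE 0.15) and SMARCC2 by 1.51 (SE 0.38) between stages 19 and 40. SMARCAL1, an annealing helicase, had its highest mean of 121 TPM at stage 7. It fell by 0.78 (SE 0.08) between stages 19 and 40, a fall not called with library size alone (-0.15).

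The remaining members had no change large enough, or no level high enough, to enter the named sets. KDM2B, which in mammals brings a variant PRC1 to CpG islands, was at 8.73 and 7.71 TPM at stage 1, 12.3, 10.9 and 23.8 TPM at stage 2 and 39.1, 31.7 and 33.4 TPM at stage 8. The groups do not overlap, with rises of 0.90 ± 0.21 and 0.81 ± 0.18. KDM4B fell by 1.61 (SE 0.11) between stages 19 and 40, from 56.6, 81.6 and 69.4 TPM to 34.2, 28.6 and 27.0 TPM, again without overlap. KDM1B fell by 1.39 (SE 0.15) in the same interval. KDM3A and KDM3B, erasers of H3K9 methylation, had their highest means at stages 9 and 10, at 63.8 and 244 TPM. SETD5 fell by 0.63 (SE 0.17) from stage 8 to 9, rose by 1.06 ± 0.17 between stages 12 and 19 and fell by 1.33 (SE 0.17) to stage 40. MLL itself rose by 1.04 ± 0.21 between stages 12 and 19. HDAC11, a class IV enzyme, had its highest mean of 1.82 TPM at stage 9, and PRMT2 was at most 3.96 TPM, at stage 8. PRMT3 had its highest mean of 102 TPM at stage 1 and its lowest of 22.4 TPM at stage 24.

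For stages 1 and 2 the poly(A) changes can be set beside total RNA, where transcripts are counted whatever the length of their tail. The tables were made and scaled separately, and only changes within each were tested. In total RNA 84 members were tested, and edgeR called 2 higher and 0 lower, beside 1.44% and 0.543% of 11419 genes. At an unadjusted p under 0.05 there were 21 members, and the DESeq2 Wald test called 11. The calls were KDM5C, at 0.42 ± 0.08 (adjusted p = 0.0351), and MLL2, at 0.66 ± 0.12 (adjusted p = 0.036). Without either stage 1 library or without stage 2 replicate 3 the count was 0, and without stage 2 replicate 2 it was 15. All-gene shares were not recorded for the unadjusted threshold, the Wald test or the left-out libraries. Those member counts therefore have no background beside them. KDM5C was at 37.8 and 38.5 TPM at stage 1 and 54.4, 48.6 and 54.1 TPM at stage 2 in total RNA. In poly(A) RNA it was at 3.30 to 3.58 TPM and 11.2 to 26.6 TPM. MLL2 was at 28.6 and 30.7 TPM and then 56.6, 39.0 and 48.6 TPM in total RNA, where its poly(A) level fell by 1.07.

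Few genes of any kind were called in total RNA, 1.44% higher and 0.543% lower, so most genes of any set were not called there. Of the 17 members that rose in poly(A) RNA, 16 were not called in total RNA, near that background. The median total RNA change of the 17 was 0.12. PRMT7, up by 2.25 in poly(A) RNA, was at 33.0 and 35.9 TPM and then at 41.3, 38.8 and 35.3 TPM in total RNA, a change of 0.12 ± 0.11 that was not called. EZH1 was at 4.29 and 3.70 TPM and then at 4.79, 5.36 and 6.23 TPM, and its total RNA change was 0.42 ± 0.23. Of the 19 that fell in poly(A) RNA, 18 were not called in total RNA, again near the background, with a median change of -0.0045 over the 19. DNMT1 was at 235 and 223 TPM and then at 220, 246 and 212 TPM, overlapping groups with a change of -0.05 ± 0.09. EZH2 changed by -0.12 ± 0.08 in total RNA. Whether changes differ between the kinds of RNA was not tested.

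**Figure D5:**
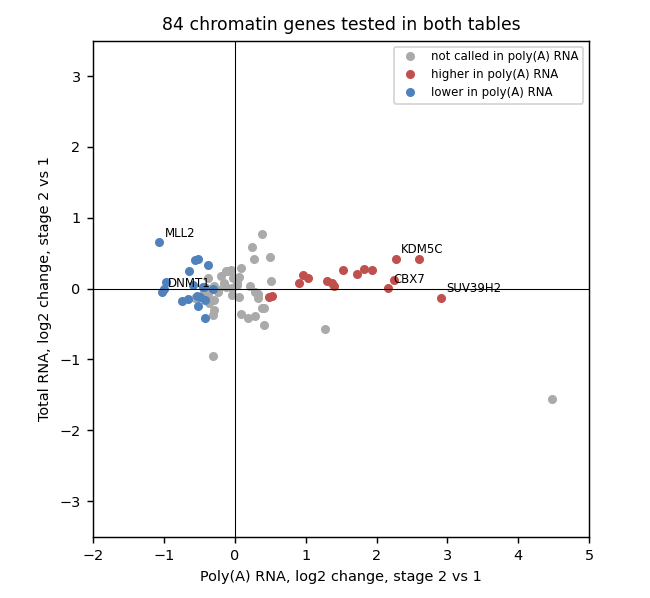
Log2 change from stage 1 to 2 in total RNA (vertical) against poly(A) RNA (horizontal) for the 84 chromatin genes tested in both tables, 1 point per gene, coloured by its call in poly(A) RNA. Called increases reach 2.91 in poly(A) RNA (SUV39H2) while the total RNA changes of KDM5C and MLL2 are 0.42 and 0.66.

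Partner genes outside the 89 were counted from lists chosen with earlier results of these data known. Their counts stand beside all-gene shares called higher and lower of 21.6% and 11.1% from stage 1 to 2, 24.9% and 18.9% from 2 to 8, 4.02% and 11.8% from 8 to 9, 26.2% and 28.3% from 9 to 12, 32.8% and 32.5% from 12 to 19, and 41.1% and 34% from 19 to 40. With library size alone these shares were 8.37% and 61.5% from 9 to 12 and 54.2% and 19.9% from 19 to 40. Of 11 PRC2 partners, 9 fell and 1 rose between stages 9 and 12, and with library size alone 9 fell and 0 rose. AEBP2, a PRC2 cofactor, fell by 2.14 (SE 0.22), from a mean of 31.4 to 3.69 TPM. Of 20 PRC1 partners, 8 rose and 2 fell from stage 1 to 2, 10 rose and 2 fell from stage 2 to 8, and 0 rose and 7 fell from stage 8 to 9. The PRC1 RING partners BMI1 and PCGF2, which are paralogues, parted between stages 9 and 12: BMI1 fell by 1.85 (SE 0.19), from 12.7 to 1.85 TPM, and PCGF2 rose by 1.83 ± 0.18, from 24.7 to 45.3 TPM.

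Of 14 histone acetyltransferases, 7 rose and 1 fell from stage 1 to 2, and 7 rose and 1 fell from stage 2 to 8. Between stages 9 and 12, 3 of these rose and 8 fell, and between stages 12 and 19, 5 rose and 7 fell. Of 12 partners of the MLL and SET1 complexes, 1 rose and 6 fell from stage 1 to 2, and 2 rose and 9 fell between stages 9 and 12. Between stages 12 and 19, 6 of these partners rose and 3 fell. Of 27 deacetylase complex partners and sirtuins, 11 rose and 10 fell between stages 9 and 12, with 3 and 20 under library size alone, and the NuRD ATPase gene CHD4 rose by 1.76 ± 0.14. Of 19 SWI/SNF partners, 10 rose and 3 fell between stages 12 and 19. Of 12 DNA methylation partners, 5 rose and 4 fell between stages 9 and 12, with 1 and 7 under library size alone. Of 14 other heterochromatin factors, 7 rose and 1 fell between stages 2 and 8, and 3 rose and 5 fell between stages 9 and 12. List counts without a named scaling are under TMM alone, and not every comparison is given for each list. Between stages 19 and 40 more genes fell than rose in each of the 8 lists under TMM scaling, among them 15 deacetylase partners against 6 and 10 PRC1 partners against 5, but with library size alone only the MLL and SET1 partners had more falling than rising, 6 against 3.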

How the data were processed

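Poly(A) RNA-seq of 49 single embryos of 17 stages and 5 total RNA libraries of stages 1 and 2 were analysed from the expected count and TPM tables that the authors deposited. RSEM 1.1.6 and Bowtie 0.12.1 are named per the submitters' processing notes; the reference transcripts are not given in the sources used here. TPM values are the authors' and were used as deposited for levels and ratios. Deposited expected counts, rounded to whole numbers, entered edgeR 4.0.16 under R 4.3.3 (filterByExpr by stage, TMM scaling, quasi-likelihood F test, all 49 libraries and 17 stages in 1 fit, Benjamini-Hochberg adjustment over 14437 genes, threshold 0.05). SE is the log2 change divided by the square root of F. The fit was tested on simulated data.

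Total RNA columns carry a stage and number that match no sample title, so they were mapped to their stage only and fitted apart, with 17363126 to 25502286 estimated counts per library. Replicates are separate single embryos in poly(A) RNA. Where total RNA libraries came from is not known, so their p-values may measure technical spread. Same-numbered embryos of the stages compared did not deviate together, with correlations of -0.08 to 0.06 over 17 pairs, so numbers were not treated as pairs. All 51 pairs of replicates differed by more than sampling noise (chi-square over its degrees of freedom at least 5.70), so each library counted once.

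The members and lists were chosen with earlier results of these data known. Genes named per comparison are up to 8 increases and 8 decreases, the largest among called members whose higher stage averaged at least 5 TPM and whose stages did not overlap. For these genes lack of overlap in that comparison was a condition of being named and adds no support to the change. The values of 1 member are not reported here, though it is in the counts. Levels of other CBX, PHC, PRC2, DNMT, TET, SUV39H and EHMT members are given as a set, and further genes and stages were chosen after their values were seen. Of the 89 members 77 are symbols in the RefSeq gene table. Reads of near-identical paralogues can be shared between rows. Alternatives were DESeq2 1.42.0 size factors and Wald test, library size alone, no filter, only the 2 stages fitted, a block for the replicate number, and leaving out single libraries.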

Additional observations from a re-analysis of the deposited data

How the results depend on the processing

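Of 87 changes named by rule, 74 kept their call under every alternative, and DESeq2 size factors, the DESeq2 Wald test and no filter changed none of the 87. In this count a change of the same sign to which the Wald test gave no adjusted p would also pass as kept. With library size alone KDM1A, PRMT5 and SMARCB1 reversed between stages 9 and 12, to -0.26, -0.32 and -0.28, in a setting that moves the median of all genes by -0.97. Library size alone also gave 5 increases and 70 decreases of members between stages 9 and 12, beside 8.37% and 61.5% of all genes. It gave 5 decreases between stages 2 and 8, beside 8.16%, and 30 increases between stages 19 and 40, beside 54.2%. In total RNA it gave 5 calls. Between stages 8 and 9 increases numbered 10 with DESeq2 size factors, 13 with the Wald test and 23 with only the 2 stages fitted. The last of these gave 18 decreases. Over all 14437 genes increases numbered 821, 1078 and 1573, against 581 in the main fit. All-gene decreases with only the 2 stages fitted were 2438, against 1704. Fitting only the 2 stages gave 11 increases and 6 decreases between stages 1 and 2 and 20 increases between stages 2 and 8. Over all genes these were 1267, 667 and 1900, against 3115, 1609 and 3600 in the main fit. The Wald test called 11 members in total RNA, where all-gene shares under the alternatives were not recorded. Leaving out a library gave 9 to 20 decreases between stages 1 and 2, 8 to 21 between stages 2 and 8, 6 to 11 between stages 8 and 9, and 0 to 15 calls in total RNA. The lowest of these were without stage 2 replicate 3 (9), stage 2 replicate 1 (8) and stage 9 replicate 1 (6), and without stage 1 replicate 1 decreases between stages 1 and 2 were 10. Over all genes, leaving out a library gave 603 to 2002 decreases between stages 1 and 2, against 1609 in the main fit. It gave 1926 to 3104 between stages 2 and 8, against 2735, and 1294 to 1604 between stages 8 and 9, against 1704. With the replicate block 17 members were higher and 18 lower at stage 2 than at stage 1, beside 3105 and 1661 of all genes. Of the named changes the block ended 1 call, the SMARCA2 rise from stage 8 to 9 (0.43, adjusted p = 0.0534). The cause of these shifts was not tested. Genes under about 1 TPM rest on few counts, which limits HDAC9, CBX5, CBX8 and SUV39H2 at their low stages. It also limits EZH1, SMARCD2, MLL5 and SUV420H2, whose lowest estimated counts in a library were 3, 0, 0 and 0. The largest ratios over EZH1 and SUV420H2 and the ranges of SMARCD2 and MLL5 rest on such values.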
